A study of Mus musculus with 6 samples.

Results

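The 35 genes described here make up the response of a cell to unfolded protein in the endoplasmic reticulum (ER) and to a shortage of amino acids. They were taken by symbol from a mouse podocyte study whose tables hold 36889 gene identifiers, and all 35 were among the 19742 genes with enough reads to be tested. By role they comprise 3 ER stress sensors, 4 transcription factors, 17 ER chaperones and ER degradation factors (the ER chaperone arm) and 11 genes that are ATF4 targets or enzymes of serine and one-carbon synthesis (the ATF4 and serine arm). Hsp90b1 and Pdia4 are counted in the tables together with small genes that overlap them (Gm15344 and Gm25745, and Mir704), so the counts of those 2 members include reads of these neighbours.

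The unfolded protein response starts at the membrane sensors Atf6, Ern1 (IRE1) and Eif2ak3 (PERK), which are held inactive by the chaperone Hspa5 (BiP). Atf6 is cleaved into a transcription factor, Ern1 cuts a short intron out of the Xbp1 mRNA in the cytoplasm so that the active factor can be made, and Eif2ak3 phosphorylates eIF2alpha, which lowers general translation and favours translation of Atf4. ATF6 and XBP1 raise ER chaperones and degradation factors, whereas ATF4, which also answers amino acid shortage, raises amino acid import and synthesis genes. Podocytes are the epithelial cells that form the slit diaphragms of the kidney filter, and ER stress in them is known from protein-folding forms of glomerular disease.

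Polyadenylated RNA of podocytes on a C57BL/6 background was sequenced in 3 libraries labelled wild type (WT) and 3 labelled CD2BP2 knockout (KO). CD2BP2 binds proline-rich peptides through its GYF domain and belongs to the U5 particle of the splicing machinery. Per the labels, the allele was made in R1/E embryonic stem cells with a loxP site placed after exon 3 of 7, and the neomycin cassette was removed with a FLPO deleter strain. The labels' treatment text describes MxCre mice given poly(I:C) and macrophages grown from their marrow, which goes against the podocyte source. The sources used here give no Cre driver for podocytes, no age of the animals and no word on whether each library came from its own animal, so the p-values reflect the spread between the 6 libraries alone, which may be technical. No treatment other than poly(I:C), which that text gives to KO mice and littermate controls alike, is named.

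Total counts over exonic parts (exons cut wherever an annotated exon begins or ends) ran from 186022084 to 255554573 per library. The targeted gene Cd2bp2 stood at 61.2 ± 0.56 CPM in WT and 48.9 ± 1.93 CPM in KO (SD, n = 3 each). CPM is the count relative to the depth of its library. The summed count was thus lower in KO and not absent (log2 fold change -0.32, edgeR adjusted p = 0.0297). That sum runs over all 10 exonic parts, so it cannot show whether the intact transcript was lost in podocytes. Cd2bp2 was lower in KO in each of 14 alternatives, but the call held in 7. Among the 6 fits that left out a library it held only in the one without KO3 (edgeR adjusted p up to 0.146). The summed level of 10 podocyte markers was 22490 to 25300 CPM in WT and 20010 to 21850 CPM in KO, and 1 of the 10 passed the test as lower. Summed markers were 1071 to 1563 CPM in WT and 1357 to 1845 CPM in KO for the proximal tubule (15 genes, 2 higher), and 183.7 to 346 CPM in WT and 271.7 to 1452 CPM in KO for the loop, distal tubule and collecting duct (13 genes, 1 higher). They were 342.5 to 419.6 CPM in WT and 381 to 438.8 CPM in KO for macrophages (10 genes, 3 higher), 8278 to 8648 and 7652 to 8315 CPM for endothelium (8 genes, 0 called), and 2634 to 2872 and 2458 to 2939 CPM for mesangium (7 genes, 0 called). The log2 fold change was above 0 for 2 of 10 podocyte, 14 of 15 proximal tubule and 13 of 13 loop and duct markers. For macrophages it was above 0 for 9 of 10 markers, for endothelium 1 of 8 and for mesangium 2 of 7. No marker was at 0 counts in any library. The highest sum of loop and duct markers was that of KO2. The part of these markers in the results below was not tested, and in bulk RNA fewer cells of a type and less RNA per cell cannot be told apart.

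Across all genes, edgeR's quasi-likelihood test (Benjamini-Hochberg adjusted p under 0.05) called 666 of 19742 genes, or 3.37%, with 1.62% higher and 1.76% lower in KO. Of the 35 members it called 1, Phgdh, which rose in KO, and that share of 2.86% is near the background. A log2 fold change below 0 was found for 24 members and above 0 for 11, while the median over all genes was 0.01 and 50.9% of all genes had a value above 0. At an unadjusted p under 0.05 there were 10 members, 2 higher and 8 lower, beside 22.6% of all genes. DESeq2 called 5 members (Phgdh higher, and Xbp1, Ddit3, Hspa5 and Ddit4 lower) beside 14.0% of all genes it tested, and limma-voom called Phgdh alone. The WT and KO values did not overlap for 4 members that were higher and 6 that were lower, against 14.1% and 14.8% of all genes. The median SE of a log2 fold change was 0.11 for the members and 0.13 for all genes.

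**Figure D1:**
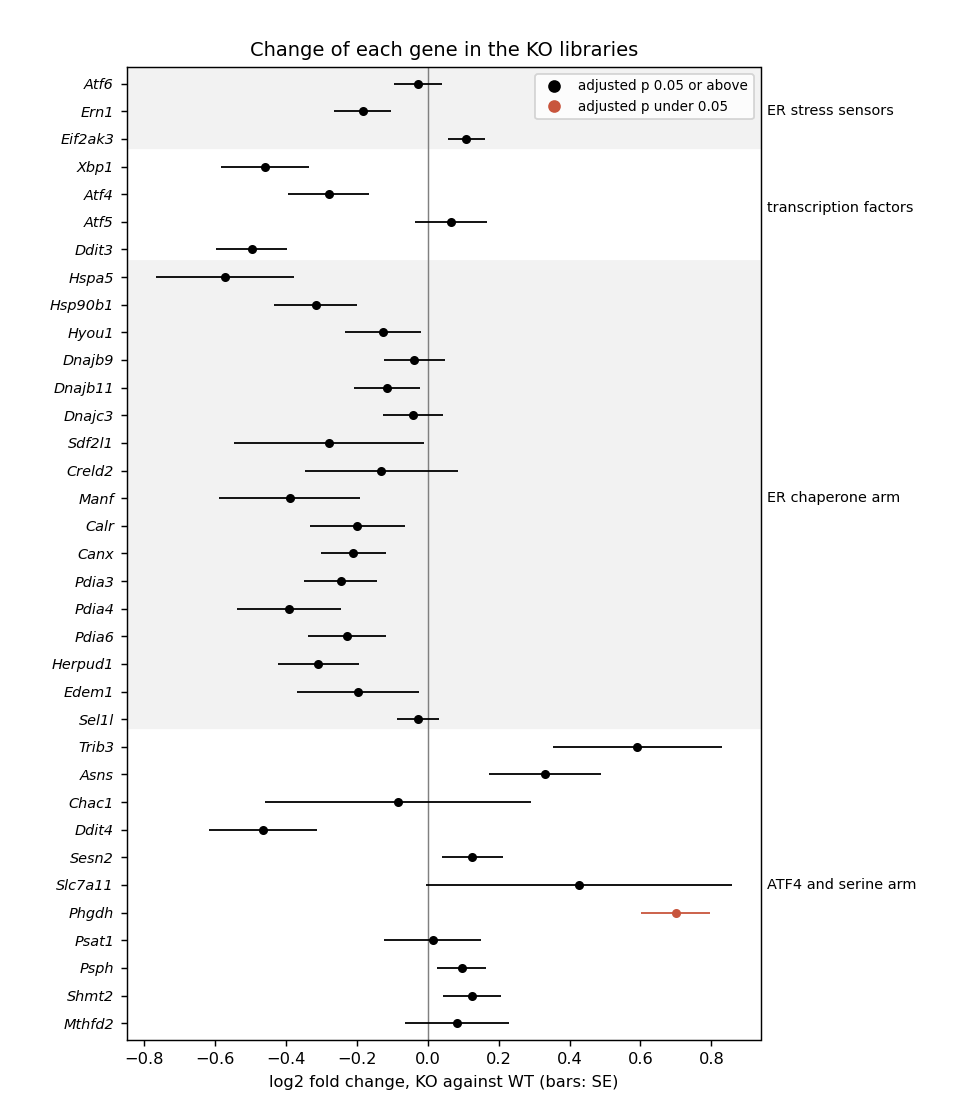
Log2 fold change of each of the 35 genes in KO against WT (x axis; points, edgeR estimates; bars, SE), ordered by role. The 17 points of the ER chaperone arm lie below 0, and Phgdh at 0.70 is the only gene with an adjusted p under 0.05.

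The sensors sit at the head of the pathway, and none of the 3 passed the edgeR test, DESeq2 or limma-voom, nor an unadjusted p under 0.05. Atf6 was at 105, 93.9 and 95.6 CPM in WT1 to WT3 and at 91.3, 103 and 95.2 CPM in KO1 to KO3. These ranges overlap (log2 fold change -0.03, SE 0.07). Ern1, the nuclease that splices Xbp1, was at 46.0, 47.5 and 40.1 CPM in WT and 40.3, 36.7 and 40.7 CPM in KO, so that WT3 sat within the KO range. Its log2 fold change was -0.18 (SE 0.08, edgeR adjusted p = 0.241). Eif2ak3, the eIF2alpha kinase, was at 50.1, 52.8 and 51.8 CPM in WT and 55.3, 58.4 and 53.1 CPM in KO. Every KO library was above every WT library for Eif2ak3, but by little (log2 fold change 0.11, SE 0.05, edgeR adjusted p = 0.275).

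Of the 4 transcription factors none passed edgeR or limma-voom. An unadjusted p under 0.05, with lower values in KO, was found for 3, beside 22.6% of all genes in either direction. DESeq2 called 2 of these 3, beside 14.0% of all genes it tested. Ddit3 (CHOP; ENSMUSG00000025408, chr10:126727830-126733344, NCBIM37), a factor that promotes cell death in prolonged ER stress, was at 23.3, 27.8 and 29.0 CPM in WT and 19.7, 17.5 and 19.6 CPM in KO. The groups did not overlap, and the log2 fold change was -0.50 (SE 0.10). The edgeR adjusted p of 0.0527 missed the threshold narrowly. It passed with a filter of 1 CPM in 3 libraries (adjusted p = 0.0495), with only the parts that overlap no other gene (0.0466) and in DESeq2 (0.000389), and missed in the other 11 of 14 alternatives, among them each of the 6 fits that left out a library, the replicate block (0.114), limma-voom (0.0587) and only the longest exonic part (0.276). Atf4, the factor of the amino acid response, was at 134, 176 and 164 CPM in WT and 124, 124 and 143 CPM in KO. Only WT1 fell within the KO range (log2 fold change -0.28, SE 0.11, edgeR adjusted p = 0.212). Atf5, a relative that is translated under the same control, was at 11.1, 13.1 and 13.2 CPM in WT and 14.2, 12.2 and 12.7 CPM in KO, with overlapping groups (log2 fold change 0.07, SE 0.10).

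Xbp1 (ENSMUSG00000020484, chr11:5420662-5425896, plus strand, NCBIM37) was at 177, 206 and 249 CPM in WT and 162, 150 and 147 CPM in KO. The groups did not overlap. The log2 fold change was -0.46 (SE 0.12, edgeR adjusted p = 0.101; DESeq2 adjusted p = 0.0101), and without WT3, the highest library, it was -0.32.

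The annotation splits Xbp1 into 19 exonic parts, and part 10 is exactly the stretch that Ern1 removes (chr11:5424285-5424310, NCBIM37). The sequence is shown because its presence or absence in the mRNA decides which protein is made. It was read from the GENCODE transcript on GRCm38 (chr11:5524270-5524319, plus strand), with the 26 bases of part 10 in capitals and 12 bases on either side in lower case.
Xbp1 part 10: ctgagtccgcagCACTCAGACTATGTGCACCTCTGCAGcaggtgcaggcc
The capitals held 1064, 1285 and 1983 counts in WT1 to WT3 and 1447, 1082 and 1173 counts in KO1 to KO3. This was 3.24%, 3.47% and 3.50% of the Xbp1 counts in WT and 3.43%, 3.29% and 3.32% in KO, with overlapping groups. The means were 3.40 ± 0.14% and 3.35 ± 0.08% (SD, n = 3 each), and an exact two-sided permutation test gave p = 0.7. Set against part 10 and its neighbours on either side, the share was 25.99%, 25.9% and 26.4% in WT and 25.6%, 25.6% and 25.5% in KO. On that scale the groups did not overlap, and the KO mean was lower by less than a percentage point (26.1 ± 0.25% against 25.6 ± 0.06%, SD, n = 3 each), where the exact two-sided permutation test gave p = 0.1, which no outcome with 3 libraries per group can undercut. In 6 of 6 libraries part 10 had fewer counts than both neighbours and fewer than part 12, which is 2 bases long. Whether reads that lack the 26 bases were aligned, and how reads that span a junction were counted, is not stated in these sources, so the share is not a measure of the fraction spliced by Ern1.

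**Figure D2:**
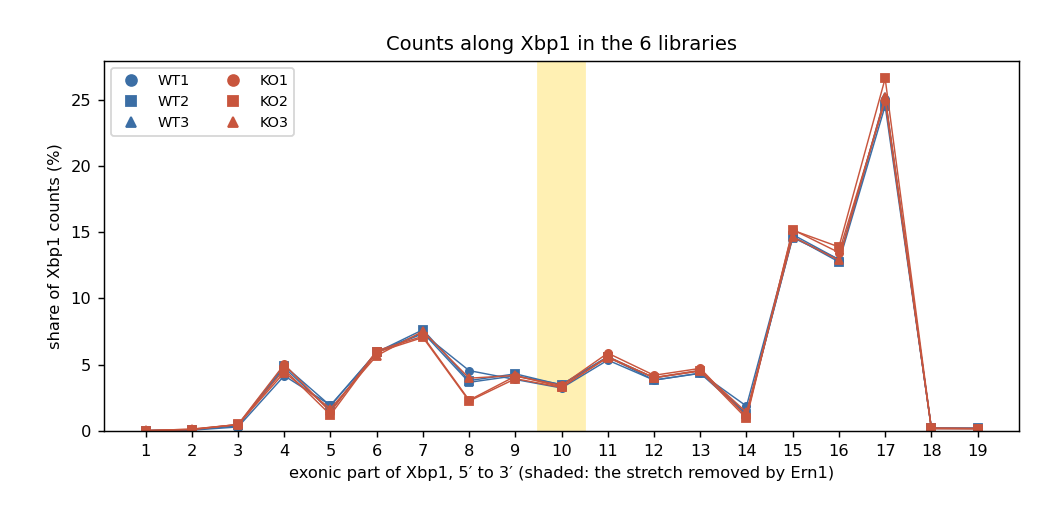
Share of Xbp1 counts (y axis, percent) in each of the 19 exonic parts from the 5′ to the 3′ end (x axis), 1 line per library; the shaded band marks part 10. The 6 lines nearly coincide at part 10, between 3.24% and 3.50%, and part 8, a retained-intron part, shows KO1 and KO2 below the other libraries.

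The ER chaperone arm had a log2 fold change below 0 in 17 of 17 genes, with a median of -0.21 and a range from -0.57 to -0.03. None passed edgeR or limma-voom. An unadjusted p under 0.05 was found for 4, beside 22.6% of all genes. DESeq2 called 1 (Hspa5), beside 14.0% of all genes it tested. The WT and KO values did not overlap in 3, all lower in KO, beside 14.8% of all genes in that direction. The order of the libraries was much the same from gene to gene. WT3 was the highest library in 16 of the 17 genes, KO3 was the lowest in 15, and KO1 stood above WT1 in 14. The direction of the arm was kept without any 1 library, but its median was -0.09 without WT3.

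Hspa5 (ENSMUSG00000026864, chr2:34627490-34632051, NCBIM37), the most abundant of the members per kilobase of exon in WT (348 CPM per kilobase), was at 1037, 1145 and 1480 CPM in WT and 1020, 791 and 654 CPM in KO. KO1 lay just under WT1 and the other KO libraries well below. The log2 fold change was -0.57 (SE 0.20, edgeR adjusted p = 0.158; DESeq2 adjusted p = 0.0279), and -0.41 without WT3. Hsp90b1 (GRP94), the ER form of HSP90, was next in level at 320 CPM per kilobase and was at 1223, 1402 and 1569 CPM in WT and 1220, 1159 and 992 CPM in KO (log2 fold change -0.32, SE 0.12, edgeR adjusted p = 0.181). KO1 and WT1 differed by only a few CPM. The co-chaperones of Hspa5 showed smaller differences: Hyou1, a nucleotide exchange factor, had a log2 fold change of -0.13 (SE 0.11). Among the J-domain proteins, which hand substrates to Hspa5, it was -0.04 (SE 0.09) for Dnajb9, -0.11 (SE 0.09) for Dnajb11 and -0.04 (SE 0.08) for Dnajc3, all with overlapping groups.

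The lectin chaperones and disulfide isomerases, which fold glycoproteins and form disulfide bonds, followed the same order of libraries. Canx (calnexin) was at 511, 522 and 562 CPM in WT and 498, 481 and 401 CPM in KO, without overlap (log2 fold change -0.21, SE 0.09, edgeR adjusted p = 0.237). Calr (calreticulin), its soluble counterpart, was at 742, 860 and 987 CPM in WT and 851, 751 and 654 CPM in KO (log2 fold change -0.20, SE 0.13). Here KO1 and KO2 lay inside the WT range. Pdia4 was at 218, 238 and 283 CPM in WT and 223, 180 and 160 CPM in KO (log2 fold change -0.39, SE 0.15, edgeR adjusted p = 0.185). For Pdia3 and Pdia6 the log2 fold changes were -0.25 (SE 0.10) and -0.23 (SE 0.11), and in these 3 isomerases KO1 lay just above WT1.

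Manf, Creld2 and Sdf2l1 encode secreted or small ER proteins that are induced by ER stress. Manf was at 73.4, 93.0 and 117 CPM in WT and 85.96, 71.3 and 59.4 CPM in KO (log2 fold change -0.39, SE 0.20). Creld2 was at 32.9, 42.3 and 58.3 CPM in WT and 46.6, 41.0 and 34.3 CPM in KO, so that the WT range enclosed all KO libraries. Its log2 fold change of -0.13 (SE 0.22) turned to 0.11 without WT3, and that of Sdf2l1 (-0.28, SE 0.27) was -0.01 without WT3. Of the degradation factors, Herpud1, a membrane adaptor of the ubiquitin ligase complex, was at 106, 136 and 137 CPM in WT and 108, 105 and 92.7 CPM in KO (log2 fold change -0.31, SE 0.11, edgeR adjusted p = 0.181). Edem1, which passes misfolded glycoproteins on for degradation, had a log2 fold change of -0.20 (SE 0.17) and Sel1l, the scaffold of that complex, -0.03 (SE 0.06), both with overlapping groups.

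**Figure D3:**
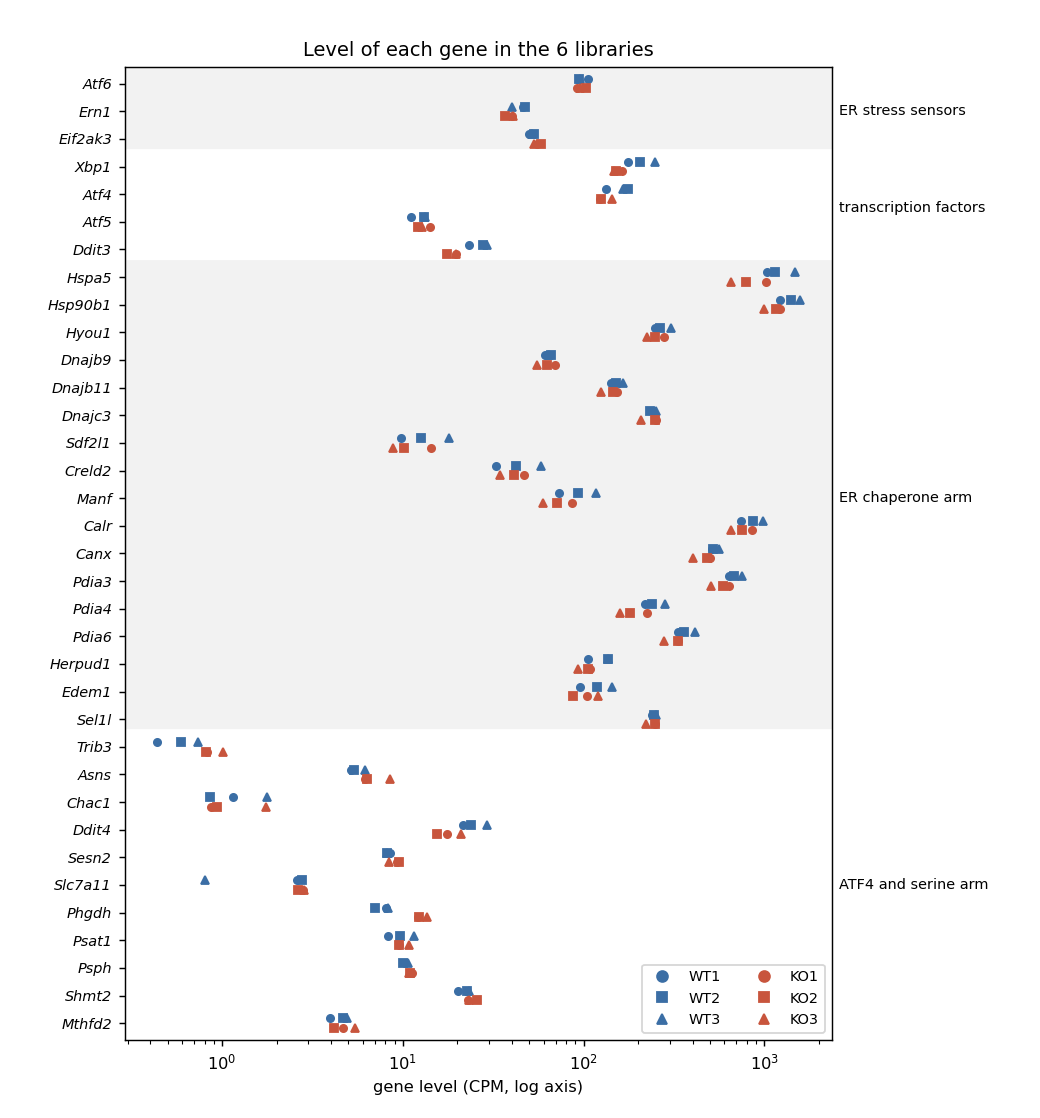
Level of each of the 35 genes in CPM (x axis, log scale) in the 6 libraries, ordered by role; blue, WT; red, KO; circles, squares and triangles, libraries 1, 2 and 3. In most rows of the ER chaperone arm the WT3 triangle is the rightmost point and the KO3 triangle the leftmost, and in the Phgdh row the 3 KO points lie to the right of the 3 WT points.

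The promoters of the members were searched for the response elements of the pathway, on both strands of the 250 bases before each start site. Sequences came from RefSeq (GRCm38.p6), and 32 of 35 members matched a promoter. The ER stress response element (ERSE, bound by ATF6 with NF-Y) reads CCAAT, 9 bases of any kind, CCACG. It was found in 7 of 32 members, all in the ER chaperone arm (Hspa5, Hsp90b1, Calr, Canx, Pdia6, Dnajc3 and Creld2), and in 0.13% of 27025 genes. The related ERSE-II (ATTGG, 1 base of any kind, CCACG) was found in Herpud1 and in 0.037% of genes. The amino acid response element bound by ATF4 (TGATGNAA) was found in 4 members (Asns, Chac1, Slc7a11 and Herpud1) and in 3.91% of genes. The element TGACGTGG, known as UPRE, was in none of the 32 members and in 0.603% of genes. No match overlapped a match to another element. The matches are shown for the chaperones whose exon usage is described below and for an example of each other element found, with the matched letters in capitals and 15 bases on either side in lower case. They lie at chr2:34772010-34772058 (plus strand), chr10:86705623-86705671 (minus), chr8:84847060-84847108 (minus), chr12:17266476-17266524 (plus), chr8:94386362-94386402 (plus) and chr6:7693210-7693247 (minus), in the order of the lines.
Hspa5 ERSE: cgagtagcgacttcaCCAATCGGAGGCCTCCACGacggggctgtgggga
Hsp90b1 ERSE: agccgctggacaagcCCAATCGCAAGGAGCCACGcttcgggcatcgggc
Calr ERSE: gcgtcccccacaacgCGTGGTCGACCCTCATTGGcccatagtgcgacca
Pdia6 ERSE: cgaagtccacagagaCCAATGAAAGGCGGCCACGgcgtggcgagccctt
Herpud1 ERSE-II: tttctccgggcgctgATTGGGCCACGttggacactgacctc
Asns CARE: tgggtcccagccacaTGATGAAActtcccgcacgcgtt
The Calr match reads on the opposite strand, so its letters are the reverse complement of the element. A match describes these letters and says nothing of binding in podocytes. The members were listed as genes of this response, so their contrast with all genes is no finding about these libraries.

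The tables also allow a question the gene totals hide, namely whether parts of these genes changed beyond the gene itself. Exon usage, the change of a part relative to the rest of its gene, was tested with diffSpliceDGE in edgeR, which called 58 of 15145 genes (0.383%) and 148 of 236061 parts (0.0627%). Of 34 members with at least 2 testable parts it called Calr, Hsp90b1 and Pdia6, and all 7 of their parts past the threshold were used less in KO. The 7 parts lie in introns of the coding transcript, and 6 of them are annotated only in transcripts typed as retained intron (GENCODE M21).

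Calr part 10 (chr8:87369336-87369648, minus strand, NCBIM37) held 1072, 817 and 1055 counts in WT1 to WT3 and 460, 256 and 533 counts in KO1 to KO3. Every KO library was below every WT library, while the coding part beside it (part 9) had a usage log2 change of -0.0095. The usage log2 change of part 10 was -1.34 (edgeR adjusted p = 1.05e-05). Part 11, the adjoining stretch of the same intron, held 511, 395 and 521 counts in WT and 245, 133 and 289 in KO (usage log2 change -1.19, edgeR adjusted p = 0.00436). Calr was called without any 1 library (gene-level adjusted p from 2.3e-07 to 0.0155).

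In Hsp90b1, part 4 (chr10:86154494-86154863, minus strand) held 752, 576 and 894 counts in WT and 374, 207 and 480 in KO (usage log2 change -1.04, edgeR adjusted p = 0.000226). Part 16 (chr10:86158288-86158404) held 410, 298 and 458 counts in WT and 192, 111 and 216 in KO (-1.14, edgeR adjusted p = 0.00266). Part 10 (chr10:86155504-86155840) held 732, 624 and 888 counts in WT and 384, 197 and 421 in KO (-1.14, edgeR adjusted p = 2.16e-05). Its transcript is not in the GENCODE release used, so it was not counted in the retained-intron class. In Pdia6, part 10 (chr12:17284111-17284453, plus strand) held 445, 488 and 461 counts in WT and 165, 154 and 315 in KO (-1.20, edgeR adjusted p = 0.000156), and part 19 (chr12:17287876-17288616) held 447, 351 and 601 in WT and 303, 151 and 228 in KO (-1.09, edgeR adjusted p = 0.00116). The counts of the groups did not overlap in any of these 5 parts, and KO2 was the lowest library in each. Without KO2 the gene-level calls of Hsp90b1 (edgeR adjusted p = 0.182) and Pdia6 (0.101) were lost and that of Calr (0.0155) was not.

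The 5′ splice sites that open the introns are shown for 6 of the 7 called parts (5 sites, since Calr parts 10 and 11 share one) and mark where the introns begin. None is shown for Hsp90b1 part 10, whose transcript is not in the release used. The sites were read from GENCODE transcripts on GRCm38, with 10 bases of exon in lower case, the first 6 bases of the intron in capitals and 14 further intron bases in lower case. They lie at chr8:84845842-84845871 (minus strand), chr10:86692120-86692149 (minus), chr10:86695640-86695669 (minus), chr12:17277295-17277324 (plus) and chr12:17281060-17281089 (plus), in the order of the lines.
Calr part 11: atcatgtttgGTGAGGggcccccagccagt
Hsp90b1 part 5: tgaagcacagGTTTGTgtgcccttaactct
Hsp90b1 part 16: caaaggtgttGTAAGTatctgaagattgta
Pdia6 part 10: tggaaagcagGTAAGGctgttatttcaatg
Pdia6 part 19: agtttctcagGTAATTgttttcttagttgt
All 5 open with GT, the usual first bases of an intron, and no hexamer occurs more than once among them. Hsp90b1 part 5 is the short stretch between the exon and part 4 of the same intron.

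The same direction was found beyond the called parts. The class of parts that occur only in retained-intron transcripts was chosen after seeing the calls, so it is described with no test. Of 39 such parts tested in 12 members, 38 (97.4%) were used less in KO, with a median usage log2 change of -0.85, and 6 were called. The exception, Hsp90b1 part 1, held 12 to 34 counts per library. Over all genes 0.0838% of such parts were called as lower in KO (9 of 10745), and these 9 include the members' 6. In genes that are no members 3 of 10706 such parts were called lower and 13 higher, 55.3% were used less in KO, and the median was -0.04. Those genes were not matched to the members for read depth, on which the number of calls depends. Parts of the members' own coding transcripts had a median of 0.00. In the ER chaperone arm it was 34 of 35 parts with a median of -0.97, against 20 of 35 parts and -0.13 in other ER folding, degradation and sensor genes, and 4 of 21 parts and 0.24 in the cytosolic and nuclear heat shock genes.

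As a share of all counts of the ER chaperone arm, retained-intron parts made up 0.629%, 0.484% and 0.439% in WT1 to WT3 and 0.241%, 0.175% and 0.364% in KO1 to KO3. The groups did not overlap, KO3 was nearest to WT, and the KO mean was 0.50 of the WT mean. Over all genes the share was 0.883%, 0.847% and 0.864% in WT and 0.907%, 0.693% and 0.915% in KO, so KO1 and KO3 were above all WT libraries and KO2 was below them. In the transcription factors it was 2.83%, 2.24% and 2.29% in WT and 1.52%, 1.34% and 2.23% in KO, where KO3 was just under WT2. KO2 had the lowest share of the 6 libraries over all genes as well, and the part of this in the KO2 values was not tested.

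Gene by gene, 18 members had a part of this class. The KO libraries were all below the WT libraries in 7 (Calr, Hsp90b1, Pdia6, Hyou1, Manf, Herpud1 and Eif2ak3) and all above in none. Of the 5093 tested genes with a part of this class, the KO libraries were all below in 6.11% and all above in 4.36%, again with no matching for read depth. Manf differed most among the 7 members: its share was 1.60%, 1.12% and 1.01% in WT and 0.403%, 0.364% and 0.631% in KO. Hspa5, with 3 such parts, was at 0.616%, 0.358% and 0.334% in WT and 0.192%, 0.137% and 0.352% in KO, where KO3 lay inside the WT range. Ddit3 did not show the pattern (7.30%, 5.92% and 4.44% in WT and 5.61%, 3.98% and 6.79% in KO). In the ATF4 and serine arm the parts held 11 to 30 counts per library over 6 genes, too few to compare.

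**Figure D4:**
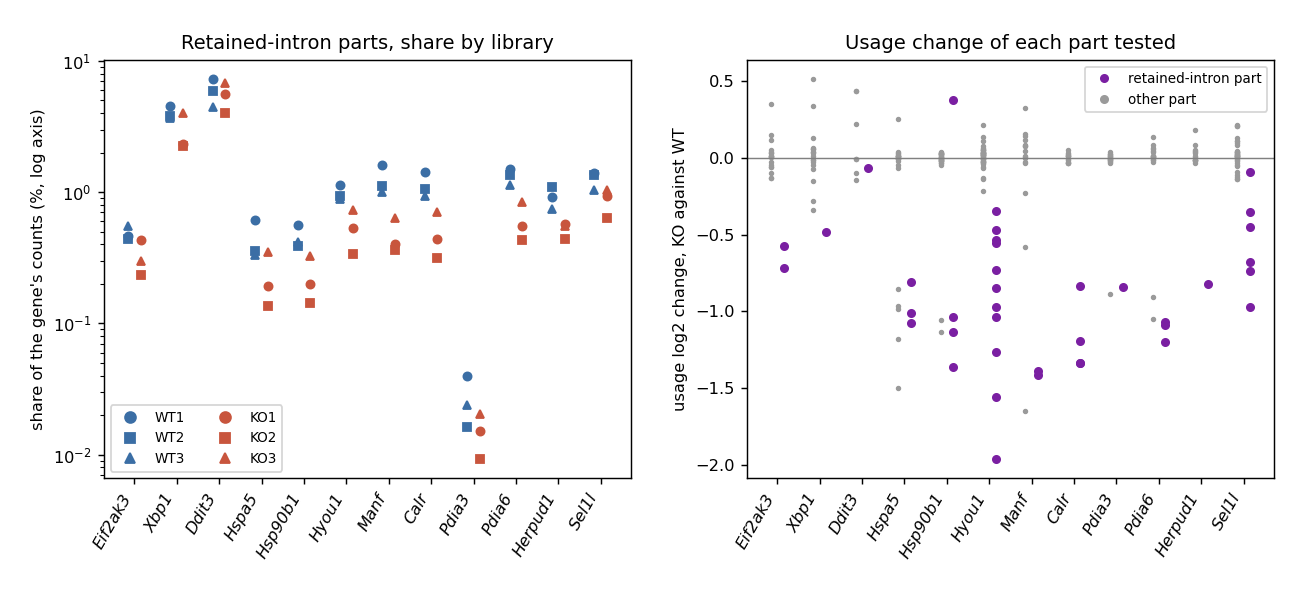
Left, share of each gene's counts in its retained-intron parts (y axis, percent, log scale) in the 6 libraries for the 12 members with a tested part of this class; right, usage log2 change in KO against WT of each tested part of the same genes. On the left the red KO points lie below the blue WT points in most genes, with KO3 the highest KO library in several; on the right 38 of 39 retained-intron parts lie below 0.

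The ATF4 and serine arm, which makes and imports amino acids and curbs growth, had a log2 fold change above 0 in 9 of 11 genes, with a median of 0.12. EdgeR called 1, Phgdh, beside 3.37% of all genes. An unadjusted p under 0.05 was found for 3 (2 higher, 1 lower), beside 22.6% of all genes. Phgdh (ENSMUSG00000053398, chr3:98117093-98143913, NCBIM37), the enzyme that commits a glycolytic intermediate to serine synthesis, was at 8.03, 7.05 and 8.28 CPM in WT and 12.1, 12.2 and 13.6 CPM in KO. All KO libraries were above all WT libraries, with a gap wider than the range of either group. The rise was 1.62-fold (log2 fold change 0.70, SE 0.10, edgeR adjusted p = 0.0288). The log2 fold change was 0.57 to 0.75 over 14 alternatives, but the adjusted p was above 0.05 in each of the 6 fits that left out a library (0.0503 without WT3 to 0.115 without WT2), with the replicate block (0.0675) and with only the longest exonic part (0.0961). The other enzymes of the pathway did not pass: Psat1 (log2 fold change 0.01, SE 0.14) and Psph (0.10, SE 0.07) follow Phgdh in making serine, and Shmt2 (0.12, SE 0.08) and Mthfd2 (0.08, SE 0.15) move its carbon into the mitochondrial folate pathway. For Psph the 3 WT libraries (10.3, 9.98 and 10.7 CPM) were all below the 3 KO libraries (11.2, 11.01 and 10.8 CPM), by a small margin.

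The 6 ATF4 targets had log2 fold changes of both signs, and none passed edgeR or limma-voom (2 with an unadjusted p under 0.05, 1 by DESeq2). Trib3, a pseudokinase, was the lowest at 0.436, 0.589 and 0.738 CPM in WT and 0.829, 0.815 and 1.02 CPM in KO, without overlap (log2 fold change 0.59, SE 0.24, edgeR adjusted p = 0.207). Asns, which makes asparagine, was at 5.17, 5.36 and 6.19 CPM in WT and 6.18, 6.32 and 8.53 CPM in KO (log2 fold change 0.33, SE 0.16, edgeR adjusted p = 0.27). Only WT3 reached the KO range, and KO3 stood apart at the top. Ddit4 (REDD1), an inhibitor of the growth kinase mTORC1, went the other way, from 21.4, 23.9 and 29.2 CPM in WT to 17.6, 15.4 and 20.9 CPM in KO. The groups did not overlap, and the log2 fold change was -0.46 (SE 0.15, edgeR adjusted p = 0.147; DESeq2 adjusted p = 0.0316). Slc7a11, the cystine importer, was at 2.60, 2.77 and 0.799 CPM in WT and 2.79, 2.64 and 2.83 CPM in KO. WT3 alone was low, and the log2 fold change of 0.43 (SE 0.43) was 0.04 without it. Chac1, which degrades glutathione (-0.08, SE 0.38), and Sesn2, a sensor that restrains mTORC1 (0.13, SE 0.09), had overlapping groups.

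The arms were then set side by side. The median of log2(CPM over the mean WT CPM) in the ER chaperone arm was -0.18, -0.02 and 0.17 in WT1 to WT3 and -0.10, -0.20 and -0.40 in KO1 to KO3, so that KO1 lay inside the WT range. In the ATF4 and serine arm it was -0.13, -0.03 and 0.13 in WT and 0.12, 0.18 and 0.28 in KO, where KO1 lay just under WT3. Each gene is divided by its own WT mean, so both arms centre near 0 in WT by construction (WT means -0.01 and -0.01). The difference within a library (ATF4 and serine arm minus ER chaperone arm) was 0.05, -0.01 and -0.04 in WT. In the KO libraries it was 0.22, 0.38 and 0.68, and all were above the WT values. From the fit the difference of the medians was 0.33, and 0.24 to 0.39 when any 1 library was left out. The genes were assigned to the arms with earlier results of these data known, so this difference is a description and was given no test.

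**Figure D5:**
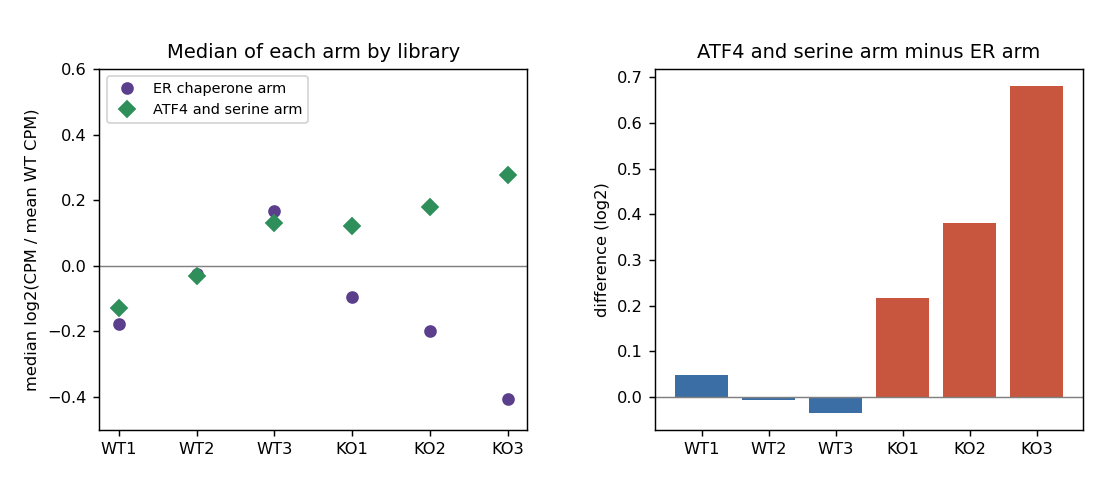
Left, median log2(CPM over mean WT CPM) of the ER chaperone arm (17 genes, purple circles) and the ATF4 and serine arm (11 genes, green diamonds) in each library; right, the difference between the arms, blue for WT and red for KO. The scaling to the WT mean centres both arms near 0 in WT; in KO the difference is 0.22, 0.38 and 0.68.

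The wider pathway was read from lists of further genes. Of other ER folding, degradation and sensor genes 34 of 35 were tested, none passed edgeR or limma-voom, 7 had an unadjusted p under 0.05 (4 higher, 3 lower), DESeq2 called 1, and the median log2 fold change was 0.005, so the arm's negative median was not found in that list. Of other regulators of eIF2 and ATF4, 22 of 23 were tested. Their median log2 fold change was -0.07, with 10 genes above 0 and 12 below. An unadjusted p under 0.05 was found for 5 (3 higher, 2 lower), beside 22.6% of all genes. DESeq2 called 3, beside 14.0% of all genes it tested. EdgeR called 1, which rose: Nupr1, a small stress-induced nuclear protein. Nupr1 was at 194, 209 and 181 CPM in WT and 314, 277 and 319 CPM in KO (log2 fold change 0.64, SE 0.08, edgeR adjusted p = 0.0239). The adjusted p was above 0.05 without KO1 (0.0769), WT1 (0.0833) or WT2 (0.0786) and with the replicate block (0.0814). None passed edgeR among 9 amino acid transporters (2 with an unadjusted p under 0.05, 1 by DESeq2, median -0.07), 20 cytosolic aminoacyl-tRNA synthetases (3, 2 by DESeq2, median 0.03) and 22 other serine, proline and one-carbon enzymes (3, 1 by DESeq2, median 0.25). The last median was 0.07 without KO2, an alternative chosen after seeing the data. Aldh1l1, a folate enzyme of that list, was at 12.5, 9.45 and 12.2 CPM in WT and 21.7, 52.1 and 13.4 CPM in KO. KO2 also had the highest sums of tubule markers (1845 CPM for the proximal tubule and 1452 CPM for the loop and duct), whose part in this median was not tested.

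The cytosolic and nuclear heat shock genes, which answer unfolded protein outside the ER, differed far more than the members did. Their list also holds the mitochondrial chaperones Hspd1 and Hspe1 (log2 fold changes -0.43 and -0.20), and neither was called. Of 15 tested, 9 fell and none rose, with a median log2 fold change of -1.02. When a library was left out, also chosen after seeing the data, 2 to 10 of the 15 were called (2 without KO2, WT1 or WT2, 4 without KO1, 5 without KO3 and 10 without WT3), while the median lay between -1.04 and -0.85. Dnajb1 and Hspa1l kept the call in all 6 of these fits, Hspa1a and Hspa1b in 3, Dnaja1 in 2, and Hspa8, Hsp90aa1, Hsph1 and Hspb1 in 1 each. Dnajb1, a co-chaperone of HSP70, fell from 79.7, 85.3 and 80.9 CPM in WT to 41.1, 36.7 and 43.5 CPM in KO (log2 fold change -1.02, SE 0.07, edgeR adjusted p = 0.00554). Hspa1l, Hspa1a and Hspa1b fell by 2.05, 2.60 and 2.78 on the log2 scale, but Hspa1a and Hspa1b are near-identical copies whose reads the counting could split between them. Hspa1l is a related gene of the same cluster. Dnaja1, which like Hspa8 is counted with overlapping genes, fell by 1.20.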

How the data were processed

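RNA-seq of 6 podocyte libraries (3 WT, 3 KO) was analysed from 1 table per library. The authors deposited raw read counts per exonic part, with the covered fraction of each part; the annotation is Ensembl 67 on NCBIM37 per the file headers. TopHat 1.4.1 comes from the submitters' processing notes, which give the build as GRCh37 (human), against the mouse coordinates of the files; the sources used here give no counting tool, strand setting or read filter, so antisense reads cannot be told apart. A gene's count is the sum over its parts. The 2-base part 12 of Xbp1 held 1259 to 2266 counts per library. A read spanning several parts therefore appears to enter more than once, though the sources do not state it.

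Genes were tested with edgeR 4.0.16 (R 4.3.3; TMM, filterByExpr, quasi-likelihood test, Benjamini-Hochberg over all genes, threshold 0.05) and exon usage with diffSpliceDGE (Simes per gene, at least 2 parts). CPM are TMM-scaled. Alternatives were DESeq2 1.42.0, limma-voom (limma 3.58.1), RLE factors, other filters, a replicate block, fewer parts and leaving out each library. Exact permutation tests used SciPy 1.17.1. The chi-square per gene between libraries of the same group was 59.7 to 173, so none was a copy of another in its group. Reads counted in several parts would also raise this value. It therefore cannot show whether libraries came from the same RNA, and WT was not compared with KO.

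On simulated gene counts (19477 genes) the test recovered 23.5%, 48.2% and 79.4% of genes changed 1.5-, 2- and 4-fold, with 5 false among 101 calls. For exon usage (236061 parts) it recovered 1.41%, 28.8% and 100% of genes, with 6 false among 84. That simulation gave all parts the same dispersion, the median over genes, and only raised parts in KO. Its figures therefore do not cover parts that vary more or that fall. The members, lists and tests were chosen with earlier results of these data known. Genes named by rule were every member, Cd2bp2, up to 5 genes past the threshold of each other list and up to 3 parts past it per member gene. Named outside this rule were Aldh1l1, Hspd1 and Hspe1, which did not pass edgeR, and Hspa8, Hsp90aa1, Hsph1 and Hspb1, which did.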

Additional observations from a re-analysis of the deposited data

How the results depend on the processing

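EdgeR called 666 genes and 1 of the 35 members. With DESeq2 it was 2541 genes and 5 members, with only the longest exonic part 424 and 0, and with the replicate block 82 and 0. The correlation of deviations was 0.11, -0.06 and 0.16 between WT and KO libraries of the same number (1, 2 and 3). Between libraries of unlike number it ran from -0.20 to 0.11. With 3 libraries per group these values cannot settle whether the numbers pair the libraries. A filter of 1 CPM, and only parts that overlap no other gene, each gave 2 members (Phgdh and Ddit3). Leaving out a library gave 31 to 254 genes and 0 members. Exon usage called 3 member genes, 1 to 4 when a library was left out and 2 with the replicate block. The KO minus WT difference in the share of Xbp1 part 10 was -0.056 percentage points over all parts (-0.14 to -0.0065 when a library was left out) and -0.56 over the neighbouring parts.

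The medians of both arms and of the retained-intron parts, the latter with alternatives chosen after seeing the data, kept their sign in each alternative run. Of 583 alternatives over the 42 genes named by rule, 524 kept direction and call, 32 lost the call, 6 gained it and 21 changed sign. With the longest part the log2 fold change was 0.021 for Atf6, 0.075 for Hsp90b1 (whose longest part is nearly unread), 0.019 for Sel1l, -0.12 for Shmt2 and -0.10 for Mthfd2. When a library was left out it spanned -0.085 to 0.024 for Atf6, -0.011 to 0.11 for Atf5, -0.12 to 0.038 for Dnajb9, -0.098 to 0.038 for Dnajc3, -0.31 to 0.11 for Creld2, -0.066 to 0.018 for Sel1l, -0.48 to 0.24 for Chac1, -0.094 to 0.15 for Psat1 and -0.031 to 0.16 for Mthfd2. The cause was not tested. The simulated recovery limits what a missed threshold says about changes under 2-fold.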
